A study of Aspergillus nidulans with 12 samples.

Results

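The genes described here encode enzymes of the glyoxylate and methylcitrate cycles of *Aspergillus nidulans*, enzymes outside them and 1 regulator. They do not cover either cycle in full, and *acuF* and *aciA* encode no step of either. They were chosen by name: *citA* (AN8275, mitochondrial citrate synthase), *mcsA* (AN6650, methylcitrate synthase), *acoA* (AN5525, putative aconitate hydratase), *mcdB* (AN6639, putative 2-methylcitrate dehydratase), *acuD* (AN5634, isocitrate lyase), *acuE* (AN6653, malate synthase), *acuF* (AN1918, phosphoenolpyruvate carboxykinase), *aciA* (AN6525, putative formate dehydrogenase) and *facB* (AN0689, the transcriptional activator of acetate use). These are 9 of the 10988 genes in the deposited table, and all 9 passed the filter on low counts that left 9070 genes for testing.

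RNA was sequenced from submerged mycelia of a reference strain, THS30 (pyrG89; AfupyrG+; pyroA4; pyroA+), and of the mutant TNJ92 (pyrG89; AfupyrG+; pyroA4; ΔatfA::pyroA), which lacks the bZIP transcription factor gene *atfA*. Both strains thus carry the same pyrG89 and pyroA4 mutations and the same *Aspergillus fumigatus* pyrG marker, and they differ in where a functional pyroA copy sits. Cultures were grown for 16 h at 37 °C, then received CdCl2 at 0.2 mM or nothing, and were sampled 0.5 h later. Each of the 4 groups had 3 biological replicates, 12 libraries in all, with totals of 8721119 to 13641031 counts, and a member had between 87 and 19640 counts in a library.

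In the glyoxylate cycle, isocitrate lyase splits isocitrate into succinate and glyoxylate, and malate synthase joins glyoxylate with acetyl-CoA, so that the decarboxylation steps of the TCA cycle are bypassed and acetate or fatty acids can feed gluconeogenesis. Citrate synthase and aconitase are shared with the TCA cycle, and aconitase carries an iron-sulfur cluster. The methylcitrate cycle starts with the condensation of propionyl-CoA and oxaloacetate and oxidises propionate to pyruvate. In *A. nidulans*, FacB mediates the acetate induction of *acuD* and *acuE*, and CreA mediates carbon catabolite repression. AtfA is known as a regulator of stress responses.

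Some facts of the whole series touch the values below. The third CdCl2-treated THS30 library lay closer to the untreated libraries than the other 2 of its group on the second principal component, at 7.15 against 14.7 and 13.1, and it was the highest of its group for 9 of the 9 members. Values without it are given for the responses of THS30 and where it changed a call or moved a called value by over 1.5 times. The deleted gene *atfA* had 301 to 357 CPM (counts scaled to a common library size by the TMM method) in untreated THS30 and 232 to 242 in CdCl2-treated THS30, against 26.1 to 27.4 and 17.3 to 25.4 in TNJ92, as the strain labels have it, although the table does not show where in the gene the remaining reads fell. The labels give fungal mycelia: of 7 genes of conidiation, *dewA* was too low to be tested and the summed level of all 7 was 27.1 to 83.3 CPM, with 46.5 to 61.3 in untreated THS30, 44.7 to 56.4 in CdCl2-treated THS30, 27.6 to 83.3 in untreated TNJ92 and 27.1 to 38.3 in CdCl2-treated TNJ92. Of the 6 tested, *brlA*, the first regulator of conidiation, rose with CdCl2 in both strains (1.38 and 1.40 on the log2 scale), and *yA*, for the laccase of the spore pigment, fell (-0.70 and -0.58). Between the strains, *wetA* (-1.50 untreated and -1.21 treated), *wA* (-1.31 and -1.46) and *yA* (-0.65 and -0.53) were lower in TNJ92 in both conditions. The remaining *rodA*, *abaA* and *brlA* gave no call between the strains in either condition. Untreated, their log2 fold changes were 1.75, 0.28 and -0.39, and *rodA* varied widely, with 22 to 761 counts in untreated TNJ92 libraries. The part of these genes in the results below was not tested. In bulk RNA, fewer cells with a transcript and less of it per cell cannot be told apart.

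Most of these transcripts were lower with CdCl2 in both strains, and several were lower in TNJ92 than in THS30 already in untreated cultures. The summed level of the 9 genes was 4698 to 5235 CPM in untreated THS30, 1567 to 2293 in CdCl2-treated THS30, 3198 to 3552 in untreated TNJ92 and 1127 to 1300.5 in CdCl2-treated TNJ92. The 4 ranges did not overlap. In untreated THS30 most of the sum came from *acuF*, *acoA* and *citA*, with means of 1496, 1364 and 928 CPM, so it describes these genes above all. The exception to the fall was *acuD*, which rose in TNJ92. All 9 genes are shown library by library in the plot of levels by gene and group.

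**Figure D1:**
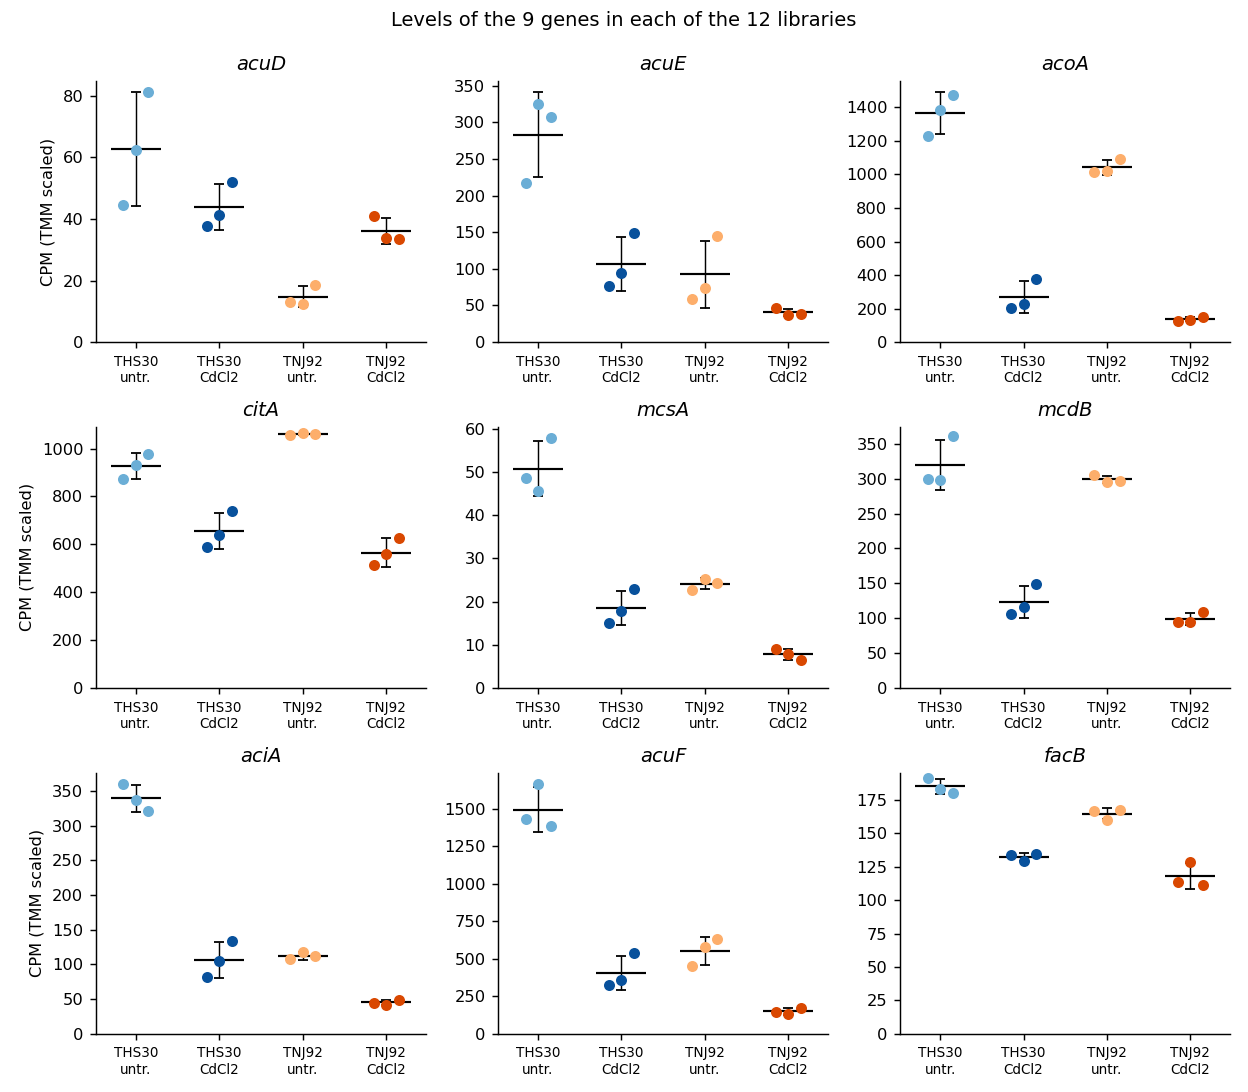
Levels of the 9 genes as CPM scaled by TMM (vertical axes from 0), 1 panel per gene, for untreated (untr.) and CdCl2-treated THS30 and TNJ92. Points are the 3 libraries of a group from replicate 1 on the left to 3 on the right, horizontal lines are means and bars are SD (n = 3). In TNJ92, *acuD* alone is higher with CdCl2, 33.6 to 40.9 CPM against 12.4 to 18.7, while *acoA* falls from 1016 to 1094 CPM to 125 to 151.

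Levels of different genes were compared per transcript length, as the deposited RPKM (reads scaled by transcript length and library total). In untreated THS30 the order of the mean RPKM levels was *acuF* (611 ± 61.5, SD, n = 3), *citA* (478 ± 18.8), *acoA* (476 ± 34.8), *aciA* (238 ± 18.3), *mcdB* (152 ± 14.9), *acuE* (145 ± 27.8), *facB* (54.9 ± 2.68), *mcsA* (30.2 ± 3.44) and *acuD* (26.9 ± 7.45). The library ranges of *citA* and *acoA*, of *mcdB* and *acuE*, and of *mcsA* and *acuD* overlapped, so these neighbours did not separate. With CdCl2 the order changed at the top and at the bottom. In CdCl2-treated THS30 *citA* came first at 367 ± 32.4 RPKM and *mcsA* last at 12.0 ± 2.22, and the 5 genes from *acoA* to *facB* formed a run in which each overlapped with its neighbour.

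In TNJ92 *citA* was first in both conditions, at 553 ± 9.21 RPKM untreated and 326 ± 25.4 with CdCl2 (SD, n = 3). The last place went to *acuD* in untreated TNJ92 (6.44 ± 1.61 RPKM) and to *mcsA* in CdCl2-treated TNJ92 (5.22 ± 1.00). The lines of these 2 genes cross in the plot of RPKM levels for TNJ92. In CdCl2-treated TNJ92 the RPKM ranges of *acoA* and *mcdB* overlapped, as did those of *facB* and *aciA*, and the same was true of *facB* and *acuE* in untreated TNJ92.

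**Figure D2:**
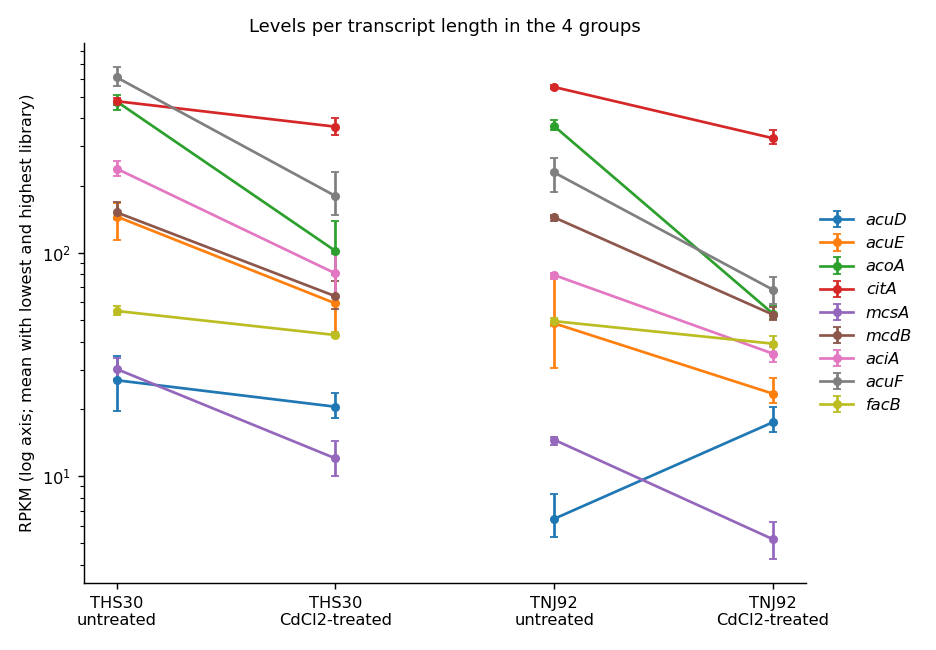
Mean RPKM of the 9 genes in the 4 groups on a log axis, with bars from the lowest to the highest of the 3 libraries and lines joining the untreated and CdCl2-treated cultures of a strain. *citA* stays between 326 and 553 RPKM in all 4 groups, and *acoA* drops from 369 to 53.5 RPKM in TNJ92. The TNJ92 line of *acuD* is the only one that ascends.

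The first question was which genes changed within 0.5 h of CdCl2 in each strain. In THS30, 8 of 9 members fell and 0 rose with the quasi-likelihood test of edgeR at a Benjamini-Hochberg adjusted p under 0.05, against 21.5% of all genes tested that fell and 22.5% that rose. At an unadjusted p under 0.05 the counts were 9 fallen and 0 risen, and the same counts were obtained with DESeq2. In TNJ92, 8 of 9 fell and 1 rose, against 28.2% and 28.3% of all genes. The median log2 fold change of the members was -1.41 in THS30 and -1.32 in TNJ92, where the median of all genes was 0.00 in both strains. Scaling by library totals instead of TMM moved the fold changes of all genes by 0.12 in THS30 and 0.15 in TNJ92 on the log2 scale and left the direction of all 9 members as it was in both strains.

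Both synthases fell, *mcsA* further than *citA*. *citA* had 872, 932 and 979 CPM in untreated THS30 and 588, 639.6 and 739 with CdCl2, and 1057, 1063 and 1059.9 in untreated TNJ92 and 511, 558 and 628 with CdCl2. Treated and untreated libraries did not overlap in either strain. The log2 fold changes were -0.50 ± 0.10 (standard error) in THS30 and -0.91 ± 0.10 in TNJ92, 1.42-fold and 1.87-fold decreases (adjusted p from edgeR 0.000857 and 1.22e-06).

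*mcsA* had 48.6, 45.7 and 57.9 CPM in untreated THS30, 15.0, 17.8 and 22.9 in CdCl2-treated THS30, 22.8, 25.3 and 24.4 in untreated TNJ92, and 9.06, 7.79 and 6.53 in CdCl2-treated TNJ92. It was a scarce transcript in every library, and each CdCl2-treated group lay below its untreated one. It fell by 1.45 ± 0.15 on the log2 scale in THS30 and by 1.63 ± 0.16 in TNJ92 (edgeR, adjusted p 1.32e-06 and 2.15e-07). The ratio of the RPKM of *citA* to that of *mcsA*, taken up after the values had been seen, went from 14.6 to 17.7 in untreated THS30 to 27.9 to 33.9 with CdCl2, and from 36.3 to 40.2 in untreated TNJ92 to 48.9 to 83.2. The groups did not overlap in either strain, and a two-sided exact permutation test of 3 against 3 libraries gave p = 0.1 each time, the smallest it can give.

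*acoA*, the aconitase that turns citrate into isocitrate, had the largest fold decrease of the 9 in both strains. Its level was 1230.4, 1387 and 1476 CPM in untreated THS30, 204, 227 and 378 in CdCl2-treated THS30, 1016, 1019.9 and 1094 in untreated TNJ92, and 125, 135 and 151 in CdCl2-treated TNJ92. The third CdCl2-treated THS30 library stood well above the other 2 but still far below every untreated library. The log2 fold change was -2.34 ± 0.19 in THS30 (5.07-fold, adjusted p 7.47e-07) and -2.93 ± 0.19 in TNJ92 (7.64-fold, adjusted p 2.60e-08) in the edgeR test. Without the third CdCl2-treated library the THS30 value was -2.72.

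*mcdB*, whose product dehydrates 2-methylcitrate and is annotated by the study as binding an iron-sulfur cluster, followed *acoA* with a smaller change. It had 299, 298 and 361 CPM in untreated THS30 and 106, 116 and 149 with CdCl2, and 305, 295 and 297 in untreated TNJ92 and 93.8, 94.7 and 109 with CdCl2. The untreated libraries of the 2 strains overlapped, and all treated libraries were low. It fell by 1.37 ± 0.12 in THS30 and by 1.59 ± 0.12 in TNJ92 on the log2 scale (edgeR, adjusted p 2.50e-07 and 1.07e-08).

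The 2 enzymes particular to the glyoxylate cycle moved in opposite directions in TNJ92, while in THS30 both had negative log2 fold changes. *acuD*, for isocitrate lyase, had 44.5, 62.4 and 81.3 CPM in untreated THS30 and 37.9, 41.3 and 52.2 with CdCl2, and 13.1, 12.4 and 18.7 in untreated TNJ92 and 40.9, 33.8 and 33.6 with CdCl2. The THS30 groups overlapped, whereas in TNJ92 every treated library was above every untreated one. In THS30 the log2 fold change was -0.52 ± 0.21 and did not pass the edgeR test (adjusted p 0.0569, 95% interval -0.97 to -0.07), and in TNJ92 *acuD* rose by 1.29 ± 0.22, 2.44-fold (adjusted p 0.000301). The THS30 value is close to the threshold: it passed with DESeq2 (-0.54, adjusted p 0.0216) and without the third CdCl2-treated library (-0.72, adjusted p 0.0271), without the first untreated THS30 library (-0.71, adjusted p 0.00518) or without the third untreated TNJ92 library (-0.52, adjusted p 0.0347), with a range of 0.00518 to 0.235 over all alternatives.

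*acuE*, for malate synthase, had 217, 325 and 307 CPM in untreated THS30, 76.6, 94.7 and 148 in CdCl2-treated THS30, 58.6, 73.3 and 145 in untreated TNJ92, and 46.1, 37.2 and 38.1 in CdCl2-treated TNJ92. In untreated TNJ92, where the third library was high, it was the most variable member, with a coefficient of variation of 50.2%. It fell by 1.41 ± 0.37 in THS30 and by 1.19 ± 0.38 in TNJ92 on the log2 scale (edgeR, adjusted p 0.0132 and 0.0242). The THS30 call was lost without the first or the second CdCl2-treated library (-1.22, adjusted p 0.0507, and -1.33, adjusted p 0.0510; range over all alternatives 0.00102 to 0.0510). The TNJ92 call was lost without the third untreated library (-0.70, adjusted p 0.0665), without the second or the third CdCl2-treated library (-1.13, adjusted p 0.0717, and -1.15, adjusted p 0.0681) and in a fit of the 2 TNJ92 groups alone (-1.21, adjusted p 0.0564), with a range of 0.00515 to 0.0717.

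The ratio of the RPKM of *acuD* to that of *acuE*, also taken up after the values had been seen, sets the first enzyme of the bypass against the second. It was 0.171, 0.160 and 0.221 in untreated THS30, 0.413, 0.364 and 0.294 in CdCl2-treated THS30, 0.187, 0.142 and 0.108 in untreated TNJ92, and 0.740, 0.760 and 0.737 in CdCl2-treated TNJ92. The ratio was higher with CdCl2 in 3 of 3 libraries of each strain, with means of 0.357 ± 0.0601 against 0.184 ± 0.0323 in THS30 and of 0.745 ± 0.0126 against 0.146 ± 0.0400 in TNJ92 (SD, n = 3). An exact two-sided permutation test gave p = 0.1 in both strains, again the smallest that 3 against 3 libraries allow.

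**Figure D3:**
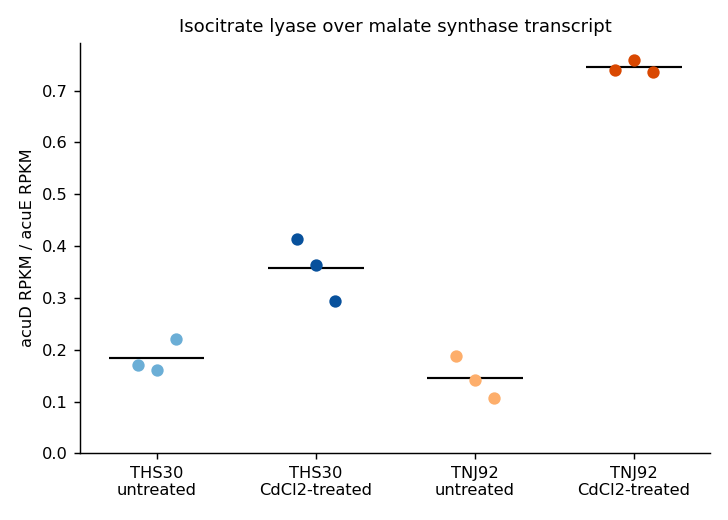
RPKM of *acuD* divided by RPKM of *acuE* in each library (vertical axis from 0, no unit), by group, with the mean of the 3 libraries as a line. The 3 CdCl2-treated TNJ92 libraries lie between 0.737 and 0.760, above the CdCl2-treated THS30 libraries at 0.294 to 0.413 and all untreated libraries at 0.108 to 0.221.

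*acuF*, whose product converts oxaloacetate into phosphoenolpyruvate at the start of gluconeogenesis, was the most abundant member per length in untreated THS30. It had 1434, 1665 and 1387 CPM in untreated THS30 and 325, 356 and 536 with CdCl2, and 452, 576 and 633 in untreated TNJ92 and 143, 131 and 175 with CdCl2. Each treated group lay below its untreated one. The fall was of like size in both strains, by 1.88 ± 0.19 and by 1.89 ± 0.19 on the log2 scale, 3.69-fold and 3.70-fold (edgeR, adjusted p 4.91e-06 and 1.59e-06).

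*aciA*, the formate dehydrogenase gene known to be inducible by acetate, showed much the same picture. It had 360.3, 337 and 321 CPM in untreated THS30, 81.1, 105 and 133 in CdCl2-treated THS30, 107, 117 and 112 in untreated TNJ92, and 44.2, 41.8 and 49.1 in CdCl2-treated TNJ92. No treated library reached the untreated level of its own strain. It fell by 1.68 ± 0.13 in THS30 and by 1.32 ± 0.13 in TNJ92 (log2 scale; edgeR, adjusted p 2.05e-07 and 5.85e-07).

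*facB* had the smallest log2 fold change of the 9 in both strains. The regulator had 191, 184 and 180.5 CPM in untreated THS30 and 134, 129 and 135 with CdCl2, and 166, 159.8 and 168 in untreated TNJ92 and 114, 129 and 111 with CdCl2. The libraries of a group lay close together and the treated groups were separate from the untreated ones. It fell by 0.48 ± 0.08 on the log2 scale in each strain, 1.40-fold (edgeR, adjusted p 0.000101 in THS30 and 4.75e-05 in TNJ92). Of the genes named above as induced by acetate through FacB, *acuD* rose and *acuE* fell in TNJ92, where *facB* fell. The part of FacB in these changes was not tested.

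The fall in THS30 was larger for all 9 genes without the third CdCl2-treated library. The log2 fold changes were then -0.65 for *citA*, -1.68 for *mcsA*, -1.58 for *mcdB*, -1.78 for *acuE*, -2.19 for *acuF*, -1.92 for *aciA* and -0.55 for *facB*, beside those of *acoA* and *acuD* given above, and all 9 passed the test.

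**Figure D4:**
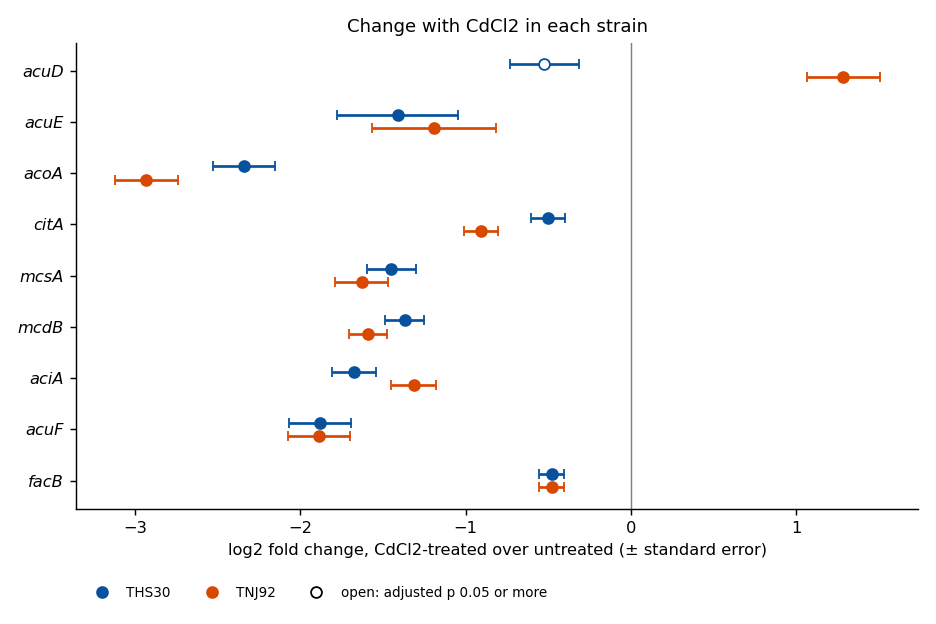
Log2 fold change of each gene with CdCl2, treated over untreated, in THS30 (blue) and TNJ92 (orange), with standard errors from the edgeR fit (3 libraries per group). Filled points passed the test at an adjusted p under 0.05. Of the 18 points, 16 are filled and below 0, *acuD* in TNJ92 is filled at 1.29, and *acuD* in THS30 is open at -0.52.

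Whether the strains responded differently was tested as an interaction term of the common model. It passed for *acuD*, whose TNJ92 response was higher by 1.81 ± 0.30 on the log2 scale (edgeR, adjusted p 0.000917), and for *citA*, whose TNJ92 response differed by -0.40 ± 0.14 (adjusted p 0.0480). These 2 of 9 members, 1 in each direction, compare with 13.2% of all genes with a higher and 13.6% with a lower response in TNJ92, so the count itself is near the background. The *acuD* interaction held under every alternative run, with adjusted p between 1.09e-08 and 0.00403. That of *citA* was lost under RLE size factors (-0.39, adjusted p 0.0645), without the count filter (-0.39, adjusted p 0.0711) and in 10 of 12 fits that left out 1 library, all except those without the first CdCl2-treated THS30 or the third CdCl2-treated TNJ92 library, with values from -0.49 to -0.27 and adjusted p from 0.0198 to 0.122 over all alternatives.

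For the other 7 members the difference between the responses did not pass the test, with log2 values from -0.59 for *acoA* (95% interval -1.14 to -0.05, adjusted p 0.103) to 0.36 for *aciA* (interval -0.03 to 0.75, adjusted p 0.171). For *acuF* it was -0.01 with an interval of -0.55 to 0.54, and for *acuE* 0.22 with an interval of -0.97 to 1.41. The intervals show the sizes of difference that the libraries leave possible. Without the third CdCl2-treated THS30 library the interaction of *aciA* passed at 0.59 (adjusted p 0.00611, range over all alternatives 0.00611 to 0.367) and that of *acoA* shrank to -0.23, and without the first one the latter passed at -0.76 (adjusted p 0.0214, range 0.0214 to 0.232).

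The second question was how the strains differed within a condition. These comparisons use the same libraries as the responses and are not independent of them. In untreated cultures 5 of 9 members were lower in TNJ92 and 0 were higher in the edgeR test, against 29.6% and 32% of all genes. At an unadjusted p under 0.05 and likewise with DESeq2, 7 were lower and 0 higher. With CdCl2, 6 of 9 were lower and 0 higher, against 27.8% in each direction. Here 7 were lower and 0 higher at an unadjusted p under 0.05, and 6 and 0 with DESeq2. The medians of the members were -1.07 and -0.98 on the log2 scale, where those of all genes were 0.03 and 0.00.

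The 5 genes lower in untreated TNJ92 were both glyoxylate bypass enzymes, *mcsA*, *aciA* and *acuF*. The largest difference was that of *acuD*, at 12.4 to 18.7 CPM against 44.5 to 81.3 in THS30, a log2 fold change of -2.09 ± 0.22 or 4.25-fold (edgeR, adjusted p 4.06e-06). For *acuE* it was -1.62 ± 0.37 (adjusted p 0.00447), for *aciA* -1.60 ± 0.13 (adjusted p 3.45e-08), for *acuF* -1.43 ± 0.18 (adjusted p 1.41e-05) and for *mcsA* -1.07 ± 0.14 (adjusted p 6.17e-06). In each of these 5 the untreated groups did not overlap.

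For *acuE*, *acuF*, *mcsA* and *aciA* the untreated TNJ92 libraries lay near the CdCl2-treated THS30 libraries. The CPM were 58.6 to 145 against 76.6 to 148 for *acuE*, 452 to 633 against 325 to 536 for *acuF*, 22.8 to 25.3 against 15.0 to 22.9 for *mcsA* and 107 to 117 against 81.1 to 133 for *aciA*. The ranges overlapped for all 4, but without the third CdCl2-treated THS30 library for *acuE* alone, as the other 2 CdCl2-treated libraries had 325 and 356 CPM for *acuF*, 15.0 and 17.8 for *mcsA* and 81.1 and 105 for *aciA*. This contrast, which differs in strain and treatment at once, was not tested. *acuD* lay apart, since its untreated TNJ92 libraries were below those of all other groups.

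The genes shared with the TCA cycle, *mcdB* and *facB* gave no call between the strains without CdCl2. The log2 fold change was -0.39 ± 0.18 for *acoA* (adjusted p 0.0733), 0.19 ± 0.10 for *citA* (adjusted p 0.114) and -0.09 ± 0.11 for *mcdB* (adjusted p 0.488, 95% interval -0.33 to 0.15), and for *facB* it was -0.17 ± 0.08 (adjusted p 0.0646). *acoA* is close to the threshold: it passed in a fit of the 2 untreated groups alone (-0.40, adjusted p 0.00164), with DESeq2 (-0.39, adjusted p 0.0450) and without the first or the third CdCl2-treated THS30 library (-0.39, adjusted p 0.0325, and -0.41, adjusted p 0.000888), with a range of 0.000888 to 0.189 over all alternatives. *facB* passed with DESeq2 (-0.17, adjusted p 0.0473) and without the third CdCl2-treated THS30 library (-0.19, adjusted p 0.0343), with a range of 0.0343 to 0.161.

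Under CdCl2 the genes lower in TNJ92 were *acuF* (-1.44 ± 0.19), *acuE* (-1.40 ± 0.38), *mcsA* (-1.25 ± 0.16), *aciA* (-1.24 ± 0.13), *acoA* (-0.98 ± 0.18) and *mcdB* (-0.32 ± 0.12), with edgeR adjusted p from 1.08e-06 for *aciA* to 0.0288 for *mcdB*. The treated groups of *mcdB* overlapped. *acuD* did not pass, at -0.28 ± 0.21 (95% interval -0.73 to 0.18, adjusted p 0.278), with 33.6 to 40.9 CPM in TNJ92 against 37.9 to 52.2 in THS30. *citA* (-0.21, adjusted p 0.0883) and *facB* (-0.17, adjusted p 0.0716) did not pass either. *citA* passed without the first CdCl2-treated THS30 library (-0.28, adjusted p 0.0366) or the third CdCl2-treated TNJ92 library (-0.29, adjusted p 0.0353), and *facB* without the second CdCl2-treated TNJ92 library (-0.24, adjusted p 0.0251), with ranges over all alternatives of 0.0353 to 0.390 and 0.0251 to 0.225.

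The third CdCl2-treated THS30 library weighed on this comparison. Without it 4 of 9 members were lower in TNJ92: the calls of *acuE* (-1.06, adjusted p 0.0515) and *mcdB* (-0.14, adjusted p 0.255) were lost, and *acoA* moved to -0.64 (adjusted p 6.73e-05). The ranges of adjusted p over all alternatives were 0.00102 to 0.0515 for *acuE* and 0.00752 to 0.255 for *mcdB*. *mcdB* was also lost without the first or the second CdCl2-treated TNJ92 library (-0.28, adjusted p 0.0965, and -0.28, adjusted p 0.0944).

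**Figure D5:**
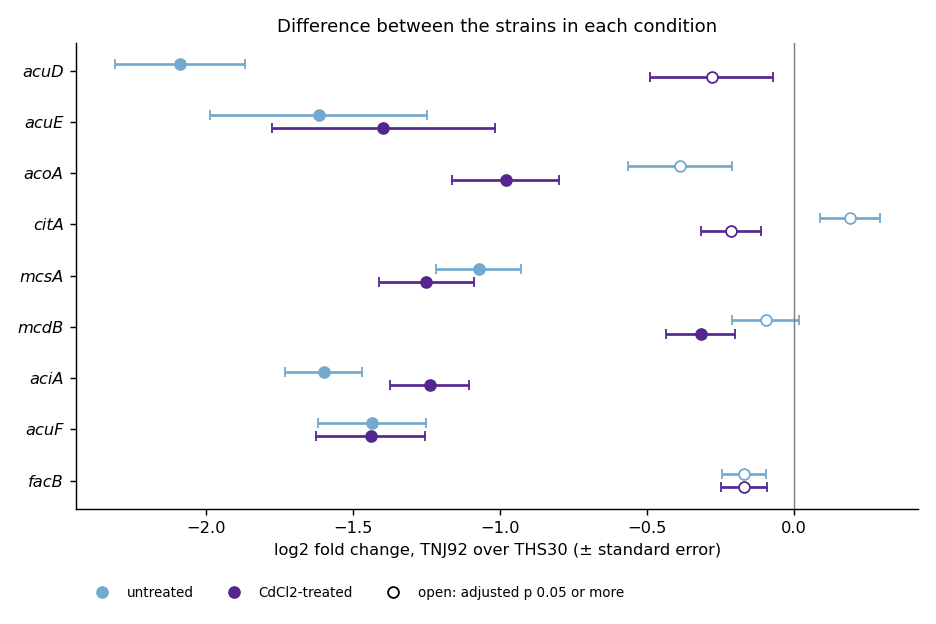
Log2 fold change of TNJ92 over THS30 for each gene in untreated (light blue) and CdCl2-treated (purple) cultures, with standard errors from the edgeR fit (3 libraries per group). Filled points passed the test at an adjusted p under 0.05. *acuD* shifts from -2.09 untreated to -0.28 with CdCl2, while *acoA* shifts the other way, from -0.39 to -0.98.

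The members' profiles over the 12 libraries, which fall into 4 groups of 3 and so are not 12 independent conditions, were compared by Pearson's r of log2 CPM, as a description. *acoA* and *mcdB* had r = 0.991, and *aciA* and *acuF* had 0.985. *mcsA* had 0.978 with *acuF* and 0.971 with *aciA*. *acuD* was the least like the rest, with r from -0.34 against *citA* to 0.51 against *acuE*.

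Among all genes tested, the 3 most like *acoA* were AN2916 (r = 0.994), *mcdB* and AN2998 (0.991), the last annotated as a putative enzyme of one-carbon metabolism. The nearest to *mcdB* was AN2332 (r = 0.992), a putative succinate dehydrogenase of the TCA cycle annotated as iron-sulfur cluster binding, which fell by 1.29 in THS30 and by 1.53 in TNJ92 on the log2 scale. The nearest to *citA* was AN0870 (r = 0.997), to *acuF* AN6168 (0.986), to *aciA* AN2794 (0.988), to *mcsA* AN3636 (0.987), to *acuE* AN6046 (0.979), to *facB* AN4929 (0.975) and to *acuD* AN0353 (0.965).

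In the gene order of the RefSeq assembly ASM1142v1, *mcsA* and *acuE* lie on chromosome I with 2 genes between them, and *mcdB* lies 11 genes away from *mcsA* on the same chromosome. The 2 genes between did not share the fall: AN6651 rose in THS30 by 0.79 ± 0.16 and had 0.01 ± 0.15 in TNJ92, and AN6652 had -0.06 ± 0.13 and 0.08 ± 0.13 (log2 scale). Genes next to other members went both ways. In THS30 and TNJ92, AN6526 beside *aciA* fell by 1.02 and 1.49, and AN5526 beside *acoA* by 0.78 and 1.04. AN1919 beside *acuF* fell by 0.71 and 0.73. AN5524, on the other side of *acoA*, rose by 0.27 and 1.13, and AN6640 beside *mcdB* rose by 0.63 in TNJ92. On the other side of *mcdB*, AN6638 fell by 1.03 in THS30, as did AN1917 beside *acuF* by 0.72. AN8274 beside *citA* fell by 0.66 and 0.57, and *tktA* beside *facB* by 0.44 and 0.36. AN5635 beside *acuD* and AN6654 beside *acuE* fell in THS30 (-0.37 and -0.36) and rose in TNJ92 (0.25 and 0.42). AN5633, also beside *acuD*, rose by 0.61 in TNJ92. *acuD* and *acoA* are both on chromosome V with 126 genes between them. *aciA* is also on chromosome I, and *citA*, *acuF* and *facB* are on chromosomes II, VII and VIII.

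Of the members, 6 belong to a set of 12 glyoxylate pathway genes that the study grouped from KEGG. Of the 9 with enough counts, 7 fell and 0 rose in THS30, against 21.5% and 22.5% of all genes. In TNJ92 7 fell and 2 rose, against 28.2% and 28.3%. The medians were -0.80 and -0.91 on the log2 scale. All 6 members of the set are among the 9, so these counts are not separate from those of the members. Among those that are not members, *mdhC*, a putative malate dehydrogenase, had 1258 to 1439 CPM in untreated and 694 to 815 in CdCl2-treated THS30, and fell by 0.80 and by 0.81 in the 2 strains. *mdhA*, a putative mitochondrial malate dehydrogenase, fell by 0.35 in THS30 and by 0.47 in TNJ92 and was higher in TNJ92 untreated (0.42) and treated (0.30), opposite to *mdhC* (-0.48 and -0.49). AN8775, *mdhB* and AN3563 had too few counts to be tested.

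*acoA* is 1 of 5 genes of the aconitase family in the study's annotation, and its fall was the largest among them. AN5300, a putative aconitate hydratase near 3 CPM, had 0.20 in THS30 (adjusted p 0.518) and rose by 0.79 in TNJ92. AN3894, another putative aconitate hydratase, had -0.30 in THS30 (adjusted p 0.185) and fell by 1.77 in TNJ92, and the difference of -1.47 between the responses passed the edgeR test (adjusted p 0.000723). *lysF*, the homoaconitase of lysine synthesis, fell by 0.87 and by 1.87, with a difference of -0.997 (adjusted p 0.000439). *luA*, the isopropylmalate isomerase of leucine synthesis, had 0.15 (adjusted p 0.400) in THS30 and rose by 0.37 in TNJ92. Of 9 genes that the study describes with a role in the TCA cycle, 8 had enough counts, and 6 fell in THS30 and 7 in TNJ92, where the remaining 1, AN5300, rose. This count is not separate from the members, since *citA*, *mcsA* and *acoA* are 3 of the 8. Of all genes, 21.5% fell in THS30 and 28.2% in TNJ92.

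Genes for acetate and fatty acid use, gluconeogenesis and their regulators gave no common direction. Of 16 genes tested, 6 rose and 7 fell in THS30 and 3 rose and 4 fell in TNJ92, with medians of -0.30 and -0.08 on the log2 scale. Of all genes, 22.5% rose and 21.5% fell in THS30, and 28.3% rose and 28.2% fell in TNJ92. *fbp1*, for the gluconeogenic fructose-1,6-bisphosphatase, moved like *acuF* but less, falling by 1.02 and by 0.50 and being lower in TNJ92 untreated (-1.13) and treated (-0.60). *mfp*, for the multifunctional enzyme of peroxisomal fatty acid oxidation, rose by 0.91 and by 0.59, and *farA*, a regulator of fatty acid use, rose by 0.42 and by 0.56. *creA*, the carbon catabolite repressor, fell by 0.35 in THS30 and had 0.19 in TNJ92 (adjusted p 0.221), a difference of 0.54 that passed the edgeR test (adjusted p 0.0392).

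Between the strains, 5 of these 16 genes were higher and 8 lower in untreated TNJ92, against 32% and 29.6% of all genes. With CdCl2 4 were higher and 5 lower, against 27.8% in each direction. In the responses, the other genes of largest change in this list were AN7287 (-1.27) and AN1059 (-0.81) in THS30, and AN5626 (-0.59) and *farB1* (-0.58, adjusted p 0.0916) in TNJ92. Between the strains they were AN7287 (-1.74), AN6752 (0.94) and *farB1* (-0.79) untreated, and AN6752 (1.02), *mfp* (-0.84) and *farB1* (-0.71) with CdCl2.

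Of 5 regulators of iron use and subunits of the CCAAT-binding complex, 3 fell and 1 rose in THS30, and 4 fell and 1 rose in TNJ92. The shares of all genes were 21.5% fallen and 22.5% risen in THS30, and 28.2% and 28.3% in TNJ92. *hapX*, the repressor of iron-consuming pathways under iron limitation, fell by 0.49 and by 0.52, and *hapB* by 0.54 and by 0.42, while *hapE* rose by 0.46 and by 0.83. *sreA*, the repressor of iron uptake, had 0.10 in THS30 (adjusted p 0.349) and fell by 0.45 in TNJ92. Between the untreated strains their log2 fold changes lay between -0.25 and 0.06, and with CdCl2 *sreA* alone of the 5 was lower in TNJ92 (-0.49).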

How the data were processed

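Reads of 12 libraries were aligned by the authors with HISAT2 2.1.0, and the sources used here do not name the program that counted the reads or its strand setting. The deposited table holds, per gene and library, a raw read count by the authors, the transcript length in bases and an RPKM value, which the authors made from count, length and library total. The counts were used for all tests and the deposited RPKM values for levels between genes only. Columns of the authors' own comparisons were not used.

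The filterByExpr function of edgeR 4.0.16 in R 4.3.3 removed genes with low counts (minimum count 10), and the rest were scaled by TMM and fitted with the robust quasi-likelihood model over all 4 groups. The 5 comparisons were the CdCl2 response of each strain, the strain difference in each condition and the interaction. P values were adjusted over the 9070 genes by the Benjamini-Hochberg method, with 0.05 as threshold. Standard errors were derived from the log2 fold change and its F statistic. Per-library CPM used TMM-scaled totals. The test of the THS30 response was also run on simulated counts with known changes in CdCl2-treated THS30. The other comparisons were not simulated.

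The members and gene lists were chosen with earlier results of these data known. Named were all members, the 12 genes of the study's glyoxylate group, up to 4 genes per comparison of the other lists, and the 3 genes most correlated with each member, of which those named carry the highest r. Of the list for acetate and fatty acid use, not all genes called in a response were named. The TCA cycle list came from the study's gene descriptions and the aconitase list was added once the files had been read, since the RefSeq gene table used for symbols (ASM1142v1, 51 of 51 listed genes matched) names no products. Alternatives were RLE size factors, library totals, no filter, DESeq2 1.42.0, the 2 groups compared alone, a replicate block, a minimum log2 fold change of 1 and each library left out. Same-numbered libraries of different groups had correlations of their deviations from -0.13 to 0.32. These were over 0.1 in 12 of 18 pairs, namely all pairs numbered 1 and 3 and none numbered 2. As this did not hold for all pairs, the numbers were not taken to pair the libraries.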

Additional observations from a re-analysis of the deposited data

Results flagged for a closer look

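The difference between the strains' responses to CdCl2 was past the edgeR test for 2 of the 9 genes. For *acuD* the TNJ92 response exceeded that of THS30 by 1.81 on the log2 scale, and for *citA* it differed by -0.40. The expression of *acuD* was lower in untreated TNJ92 than in any other group, at 12.4 to 18.7 CPM.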

How the results depend on the processing

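Of 801 values of single genes under the alternatives, 738 kept their direction and their side of the threshold, 22 lost the call, 21 gained it and 20 changed sign; none of the last belonged to a called value, and the causes were not tested. The sign changes were the interaction of *acuF* (0.0078 with RLE size factors, 0.022 with library totals, 0.0090 without a filter, 0.0076 with DESeq2, and from -0.14 to 0.29 with 1 library left out), of *facB* (-0.068 to 0.051), *acuE* (-0.023 to 0.71) and *mcsA* (-0.31 to 0.035) with 1 library left out, and the untreated strain difference of *mcdB* (-0.14 to 0.0027). The interaction lower in TNJ92 was called for 0 members with RLE size factors and without a filter, and for 0 to 2 members with 1 library left out (1 to 2 higher). In untreated TNJ92 1 member was higher with library totals and in the 2-group fit, *citA* (0.21 and 0.18). A log2 fold change of at least 1 left 425 genes risen and 287 fallen in THS30, 910 and 523 in TNJ92, 583 higher and 1175 lower in untreated TNJ92, 636 and 914 in treated TNJ92, and 456 and 255 for the interaction. With the replicate block, 9 members fell in THS30 (*acuD* with -0.51, adjusted p 0.0162) and 2 had a lower interaction (*citA* and *acoA*), the interactions of *acuF* and *facB* were 0.035 and -0.0010, and 6 and 7 members were lower in TNJ92 untreated (*acoA* added, adjusted p 0.0119) and treated (*citA* added, adjusted p 0.0482). With 3 libraries per group, values of *acuE* and *acuD* are the least precise.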
